A study of Mus musculus with 2 samples.

Results

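The cytosolic ribosomal protein genes encode the protein part of the ribosomes that translate messenger RNA in the cytoplasm. They were examined as the protein-coding GENCODE genes on chromosomes 1 to 19 named Rpl or Rps with a number and at most 1 further letter, together with Rpsa, Rplp0, Rplp1 and Rplp2. This gave 76 genes among 20807 protein-coding genes. Of these, 40 encode large subunit proteins, 29 encode small subunit proteins, 3 encode the proteins of the ribosomal stalk, and 4 are paralogues whose symbol ends in l. The limit to chromosomes 1 to 19 left 4 genes on the X chromosome aside, and these were not analysed here.

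Accessible chromatin was measured by DNase-seq, in which nuclei are cut lightly with DNase I and the cut ends are sequenced. The mice were 2 females of strain B6CASTF1/J, bred from parents of the inbred strains C57BL/6J and CAST/EiJ, with no treatment named in the labels. The left cerebral cortex was taken at 2 months of age. There is 1 library per animal and 1 group, so conditions could not be compared and no test was run. The labels number the females separately but give them the same donor entry. Replicate 1 had 128323 peaks and 340109 footprints, and replicate 2 had 119651 peaks and 284674 footprints. As a check on the tissue, peaks reached the promoters of 5 of 6 excitatory neuron markers, 2 of 2 telencephalon markers, 1 of 2 inhibitory neuron markers, 3 of 3 astrocyte markers and 2 of 2 oligodendrocyte markers in both libraries. No promoter peak was found at 3 markers of microglia, which are also cells of the cortex, nor at 4 markers of tissues outside the brain. The share over all protein-coding genes was 60.1%. Bulk tissue mixes cell types, so more accessible copies per cell and more cells of a type cannot be told apart.

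A ribosome joins a large subunit, which forms peptide bonds, to a small subunit, which reads the messenger RNA. Nearly every ribosomal protein is needed in the same amount, and their genes are highly transcribed in most cells. Their messenger RNAs typically begin with a C followed by a run of pyrimidines, the terminal oligopyrimidine tract, through which mTOR signalling controls their translation. Many of the genes carry small nucleolar RNA (snoRNA) genes in their introns. Loss of a single copy of several of them causes Diamond-Blackfan anaemia in humans. Ribosomal protein messenger RNAs have also been copied back into the genome many times, leaving processed pseudogenes.

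Nearly all of these genes were open at their start in the cortex. A peak reached within 500 bp of the outermost annotated 5′ end of 69 of the 76 genes in both libraries, or 90.8%, against 60.1% of all protein-coding genes. Replicate 1 alone had a promoter peak at 69 genes, against 62.2% of all protein-coding genes, and replicate 2 alone also at 69, against 61.5%. The authors' smaller, stricter peak list gave the same count of 69, whereas its share among all protein-coding genes was 56.1%. Accepting a peak at any annotated transcript start raised the count to 73 of 76 genes, against 65.7% of all protein-coding genes. Other housekeeping groups were close to this level, with promoter peaks in both libraries at 75 of 78 mitochondrial ribosomal protein genes, 34 of 39 proteasome genes and 28 of 30 translation factor genes. Most promoters of the ribosomal protein genes are rich in CpG dinucleotides, and among promoters with an observed to expected CpG ratio of at least 0.6 the shares were 98.6% of 69 ribosomal protein genes and 95.6% of 9822 protein-coding genes.

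The 3 genes without a peak at any annotated start in either library were all paralogues. Rpl10l on chromosome 12 replaces Rpl10 in male germ cells, Rpl39l on chromosome 16 is a germ cell form of Rpl39, and Rpl3l on chromosome 17 replaces Rpl3 in striated muscle. The nearest peak to the start of Rpl10l lay 126507 bp away in replicate 1 and 126818 bp away in replicate 2. For Rpl39l the distances were 22575 bp and 22029 bp. For Rpl3l the nearest peak lay 3260 bp away in both libraries, between Rpl3l and the neighbouring gene Rps2, a gap of 5890 bp. None of these 3 promoters held a footprint in either library. The fourth paralogue, Rps27l, a p53-induced form of Rps27, did have a promoter peak, with a signal of 2.99 in replicate 1 and 3.27 in replicate 2. The starts of these 3 paralogues are shown from 60 bp before to 20 bp after the start base, on the sense strand of the GRCm38.p6 reference genome (the mm10 build). No base is in capitals, because capitals mark bases inside a footprint in both libraries.
Rpl10l, chr12:66284381-66284461: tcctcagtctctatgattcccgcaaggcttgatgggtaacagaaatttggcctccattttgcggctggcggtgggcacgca
Rpl39l, chr16:10170166-10170246: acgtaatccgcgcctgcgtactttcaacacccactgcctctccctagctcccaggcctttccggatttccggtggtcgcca
Rpl3l, chr17:24727760-24727840: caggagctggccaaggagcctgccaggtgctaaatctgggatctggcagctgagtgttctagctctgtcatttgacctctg

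The other 4 genes without a promoter peak at the outermost 5′ end were open at the start of their principal transcript, further inside the gene. Rps2, a small subunit protein near the path of the messenger RNA, had a signal of 5.64 in replicate 1 and 6.27 in replicate 2 at its principal start, 1994 bp inside the gene. Rps10, a Diamond-Blackfan anaemia gene, had 3.25 and 3.41 at a start 1124 bp inside. Rps14, a small subunit protein, had 3.87 and 3.14 at a start 27498 bp inside, and Rpl17, a large subunit protein near the exit of the peptide tunnel, had 3.60 and 3.96 at a start 1919 bp inside. Thus every one of the 72 genes not ending in l had a peak in both libraries at an annotated start. A further 3 genes had a peak at both places. Rpl18 had a mean signal of 5.07 at the outermost end and 6.02 at its principal start, Rpl3 had 3.66 and 4.67, and Rps24 had 3.51 and 5.49. At the outermost end of Rpl3 the strongest peak only reached into the window. It was centred 577.5 bp downstream in both libraries, and in replicate 2 only 33 bp of peak lay in the window.

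The open promoters were also strong. The signal is the authors' peak height, the cut density normalised to read depth, and the strongest peak in the window was used for each gene. Over the 69 genes with a peak in both libraries the median of the mean signal was 4.29, with quartiles of 3.43 and 5.46, against a median of 2.997 with quartiles of 1.58 and 4.44 over 12498 protein-coding genes with such a peak. In replicate 1 the medians were 3.80 for ribosomal protein genes and 2.86 for all protein-coding genes, and in replicate 2 they were 4.63 and 3.11. The difference between the gene groups was therefore in the same direction in each library. The SD between the 2 library medians was 0.588 for ribosomal protein genes and 0.178 for all protein-coding genes. Both gene groups were higher in replicate 2, so these SDs do not measure the spread of the difference. Of the 69 genes, 59 lay above the median of all protein-coding genes and 13 were among the 1250 strongest of the 12498. Among CpG-rich promoters the medians were 4.22 for ribosomal protein genes and 3.53 for all protein-coding genes. The mitochondrial ribosomal protein genes had a median of 3.56, the proteasome genes 3.71 and the translation factor genes 4.44.

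**Figure D1:**
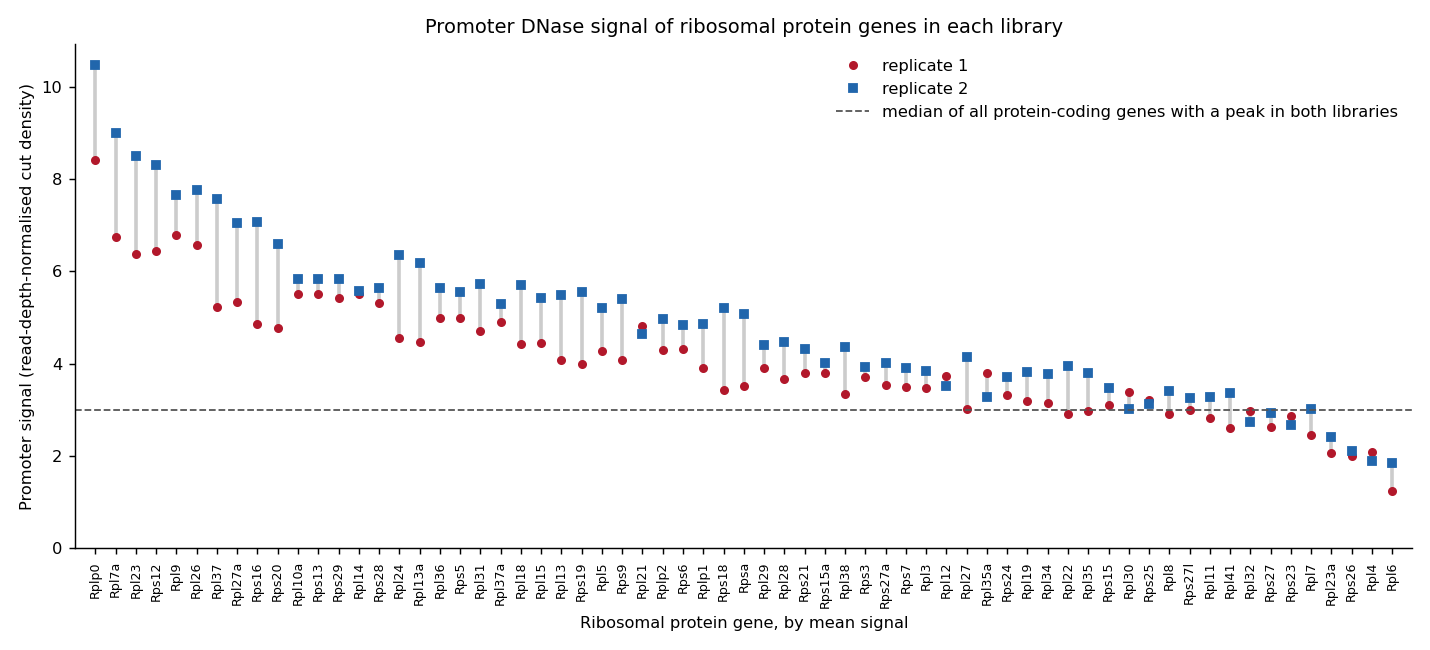
Promoter signal (vertical axis, read-depth-normalised cut density) of 65 of the 69 ribosomal protein genes with a peak in both libraries, ordered by mean; circles are replicate 1, squares replicate 2, the grey bar joins them and the dashed line is the median of all protein-coding genes, 2.997. Rplp0 stands highest and Rpl6 lowest, and the square lies above the circle in 57 of the plotted genes.

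Within the group the mean signal ran from 1.54 to 9.43. Rplp0, the protein on which the other stalk proteins are mounted, had the strongest promoter, with 8.40 in replicate 1 and 10.5 in replicate 2, which placed its mean of 9.43 ± 1.46 (SD, n = 2) at percentile 99.9 of protein-coding genes with a promoter peak. Rpl7a, a large subunit protein, followed with 6.75 and 8.99, and Rpl23, also of the large subunit, with 6.38 and 8.49. Rps12, a small subunit protein, had 6.43 and 8.30. Both Rpl9 and Rpl26 belong to the large subunit. Rpl9 had 6.79 and 7.65, and Rpl26 had 6.57 and 7.76. In all 6 of these genes replicate 2 was the higher library. The ranges of neighbouring genes in this order overlapped, and Rplp0 in replicate 2 exceeded every other value of the group.

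The promoters of the 4 highest genes show where DNA was protected. Each is given from 100 bp before to 20 bp after the start base, on the sense strand, with bases in capitals that lie in a footprint in both libraries.
Rplp0, chr5:115559367-115559487: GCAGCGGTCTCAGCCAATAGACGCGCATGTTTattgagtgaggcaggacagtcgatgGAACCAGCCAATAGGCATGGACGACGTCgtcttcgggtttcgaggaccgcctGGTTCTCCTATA
Rpl7a, chr2:26910664-26910784: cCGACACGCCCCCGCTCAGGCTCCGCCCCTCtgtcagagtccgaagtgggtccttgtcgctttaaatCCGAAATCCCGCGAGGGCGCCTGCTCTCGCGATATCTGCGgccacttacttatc
Rpl23, chr11:97782417-97782537: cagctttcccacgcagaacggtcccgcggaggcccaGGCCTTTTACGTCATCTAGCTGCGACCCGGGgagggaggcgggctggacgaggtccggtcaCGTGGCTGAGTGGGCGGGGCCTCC
Rps12, chr10:23787255-23787375: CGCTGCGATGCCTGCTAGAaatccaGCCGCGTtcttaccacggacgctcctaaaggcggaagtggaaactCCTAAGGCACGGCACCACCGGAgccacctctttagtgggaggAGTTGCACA
Footprints in both libraries covered 72 of the 121 bases shown for Rplp0, 70 for Rpl7a, 55 for Rpl23 and 57 for Rps12. In Rplp0 they covered 2 CCAAT words, the letters bound by the factor NF-Y, which begin 87 and 36 bp before the start base. In Rpl7a they covered a GGGCGG word, the letters of the SP and KLF factors, read here on the opposite strand 78 bp before the start base, and the word TCTCGCGA 9 bp before it.

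The weakest promoters included those of Rpl6, Rpl4, Rps26, Rpl23a and Rpl7. Rpl6, a large subunit protein, had a signal of 1.24 in replicate 1 and 1.85 in replicate 2, at percentile 24.2 of protein-coding genes. Rpl4, which lines the peptide tunnel, had 2.08 and 1.89, and Rps26, a Diamond-Blackfan anaemia gene, had 2.01 and 2.10. Rpl23a, which sits at the exit of the peptide tunnel, had 2.07 and 2.42. Rpl7, of the large subunit, had 2.46 and 3.01. None of these values reached the lowest value of the 6 strongest genes, 6.38, which follows from picking both sets by their signal. Averaged over the libraries, the strongest peak of each of these 5 genes was centred more than 100 bp from the annotated start, from 459.5 bp upstream in Rpl4 to 281.5 bp downstream in Rps26. The gene Zwilch starts in the opposite direction 271 bp upstream of Rpl4, so the Rpl4 peak cannot be given to one gene or the other. The 4 weakest promoters are shown over the same 121 bases and with the same use of capitals.
Rpl6, chr5:121204381-121204501: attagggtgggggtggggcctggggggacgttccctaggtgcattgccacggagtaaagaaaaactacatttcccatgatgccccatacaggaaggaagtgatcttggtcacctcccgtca
Rpl4, chr9:64173275-64173395: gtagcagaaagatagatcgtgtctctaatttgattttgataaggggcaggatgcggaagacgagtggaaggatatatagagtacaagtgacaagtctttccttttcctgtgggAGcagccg
Rps26, chr10:128626727-128626847: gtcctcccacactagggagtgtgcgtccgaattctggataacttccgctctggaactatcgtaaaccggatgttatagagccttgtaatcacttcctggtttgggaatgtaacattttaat
Rpl23a, chr11:78183564-78183684: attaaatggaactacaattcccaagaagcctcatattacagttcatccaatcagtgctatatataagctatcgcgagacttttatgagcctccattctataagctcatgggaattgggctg
Only 2 bases, both in Rpl4, lay in a footprint in both libraries, against 55 to 72 bases in the 4 strongest promoters. The mean peak centres of the 4 weakest genes lay outside the bases shown, and those of the 4 strongest inside. These counts therefore compare unlike parts of the open stretch. The 5 weak genes named above did have footprints elsewhere in the promoter, with means from 6 in Rps26 to 12.5 in Rpl7.

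**Figure D2:**
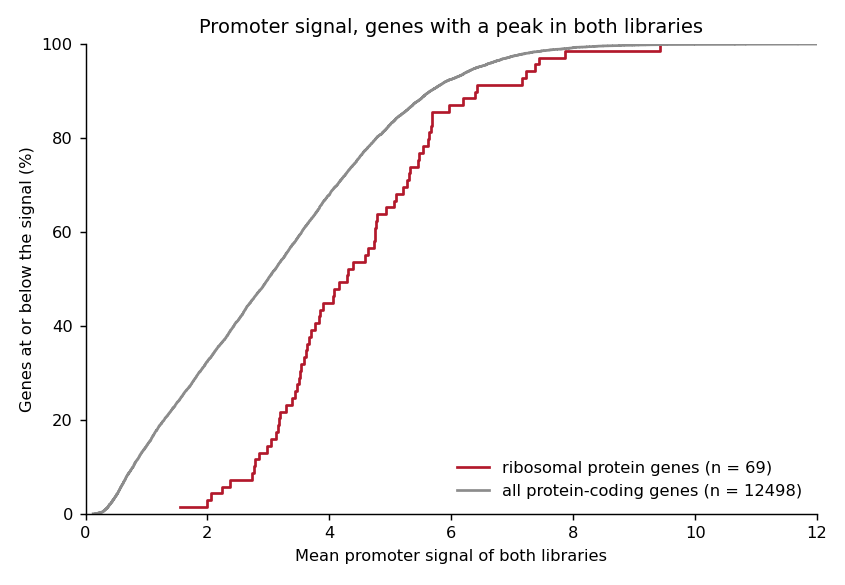
Percent of genes (vertical axis) whose mean promoter signal of both libraries is at or below the value on the horizontal axis, for 69 ribosomal protein genes and 12498 protein-coding genes with a peak in both libraries; 3 protein-coding genes lie beyond 12. The curve of the ribosomal protein genes lies to the right up to the highest signals, with medians of 4.29 and 2.997.

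Large and small subunit genes differed little. The medians were 4.07 over 39 large subunit genes and 4.30 over 26 small subunit genes. In the stalk, Rplp2 had 4.29 in replicate 1 and 4.98 in replicate 2, and Rplp1 had 3.91 and 4.86, so that both lay well below Rplp0. Rpsa, the small subunit protein that also serves as a laminin receptor, had 3.52 and 5.07. Rps27a, which is made as a fusion with ubiquitin, had 3.53 and 4.01.

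The Diamond-Blackfan anaemia genes spanned most of the range. Their median over the 8 genes with a promoter peak was 4.14. Rpl26, whose values are given above, was the strongest. Rps19, the most often mutated gene in the human disease, had 3.99 in replicate 1 and 5.55 in replicate 2. Rpl5 and Rpl11 form a particle with the 5S ribosomal RNA that binds MDM2, and Rpl5 had 4.28 and 5.21 while Rpl11 had 2.81 and 3.27. Rpl35a, of the large subunit, had 3.80 and 3.28, the reverse order of libraries. Ribosomal proteins that the naming rule does not reach had promoter peaks at 6 of 6 genes, among them Fau, whose product is made as a fusion with a ubiquitin-like protein, at 6.31 and 7.60.

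Replicate 2 had the higher signal in 61 of the 69 genes, or 88.4%, against 67.6% of all protein-coding genes. The median log2 ratio of replicate 2 to replicate 1 was 0.22 in ribosomal protein genes, 0.23 in 3757 genes whose signal lay between the quartiles of the ribosomal protein genes, and 0.14 in all protein-coding genes. The ratio was largest in Rps18, at 0.60, followed by Rpl6 at 0.58 and Rps16 at 0.54. Rps18 had a signal of 3.42 in replicate 1 and 5.20 in replicate 2, and Rps16 had 4.86 and 7.07. The ranking was similar in the libraries, with a Spearman correlation across genes of 0.929 over the 69 genes and 0.968 over 12498 genes, given as a description since all genes share the same libraries.

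Strong signal did not come with more footprints. A footprint is a short stretch with few cuts within open DNA, called by the authors at a false discovery rate of 0.01. The median number in the promoter was 7 in ribosomal protein genes and 7 in all protein-coding genes with a peak in both libraries. It was 8 and 7 in replicate 1, and 6 and 6 in replicate 2. Whereas 59 of 69 ribosomal protein genes exceeded the median signal of all protein-coding genes, 31 of 69 exceeded the median number of footprints, as did 5484 of the 12498 protein-coding genes, many being tied at the median. Genes of similar signal had a median of 7.5. The bases covered by footprints were 97.5 bp in ribosomal protein genes, 104.5 bp in genes of similar signal and 85.5 bp in all protein-coding genes. Across genes, the Spearman correlation of signal with the number of footprints was 0.0134 over the 69 ribosomal protein genes and 0.489 over 12498 protein-coding genes, as a description. These correlations cover unlike ranges, since the lowest signal was 1.54 in ribosomal protein genes and 0.125 in all protein-coding genes. The correlation within genes of similar signal was not computed.

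**Figure D3:**
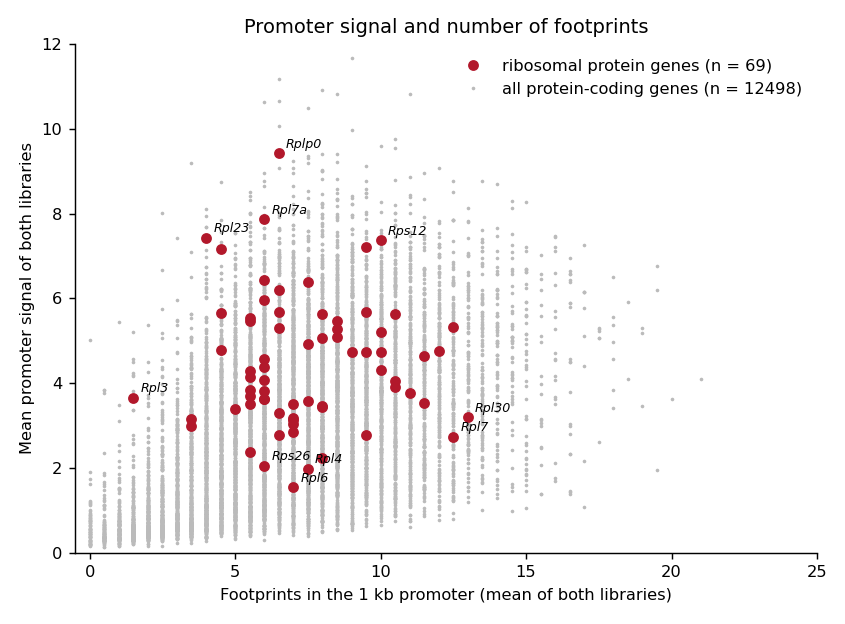
Mean promoter signal (vertical axis) against the mean number of footprints in the promoter (horizontal axis), with large points for 69 ribosomal protein genes and small points for 12498 protein-coding genes; 3 protein-coding genes lie beyond the vertical axis. Rplp0, at 9.43, has 6.5 footprints, whereas Rpl30, with the most footprints of the group at 13, has a signal of 3.20.

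Individual genes show how far the measures part. Rpl30, a large subunit protein, had 16 footprints in replicate 1 and 10 in replicate 2 at a mean signal of 3.20, the most of the group. Rpl13a, which hosts 4 snoRNA genes, had 14 and 11, and Rpl7 had 13 and 12 despite its weak signal. At the other end, Rpl3, which helps to shape the peptidyl transferase centre, had 3 and 0 at its outermost 5′ end, and 12 and 5 at its principal start. Rpl8 had 3 and 4, and Rpl41, the smallest ribosomal protein, had 2 and 5. Rpl23 held only 3 and 5 footprints at the third highest signal. At least 1 footprint in both libraries was present at 68 of 69 ribosomal protein genes, or 98.6%, against 97.1% of all protein-coding genes, the exception being Rpl3. Of the footprints in ribosomal protein promoters, 55.0% of 587 in replicate 1 overlapped one of replicate 2, and 72.1% of 441 in replicate 2 overlapped one of replicate 1. The same shares over all protein-coding genes were 52.1% and 65.1%.

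Accessibility centred on the start. The centre of the strongest peak lay at a median of 1.5 bp downstream of the start in ribosomal protein genes and 6.5 bp upstream, written as -6.5 bp, in all protein-coding genes. It lay within 100 bp of the start in 63.8% of ribosomal protein genes and 58.0% of all protein-coding genes. The share of bases inside a peak was highest from 20 to 11 bp before the start in both gene groups, at 82.5% for ribosomal protein genes and 77.4% for all protein-coding genes. Footprint cover was highest in the same 10 bp, at 33.7% and 26.8%. From 300 to 499 bp downstream, 16.7% of bases lay in a peak in ribosomal protein genes and 29.1% in all protein-coding genes. Upstream, from -500 to -301 bp, the shares were 8.19% and 12.7%. Peak cover far from the start was therefore lower in the ribosomal protein genes on both sides.

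**Figure D4:**
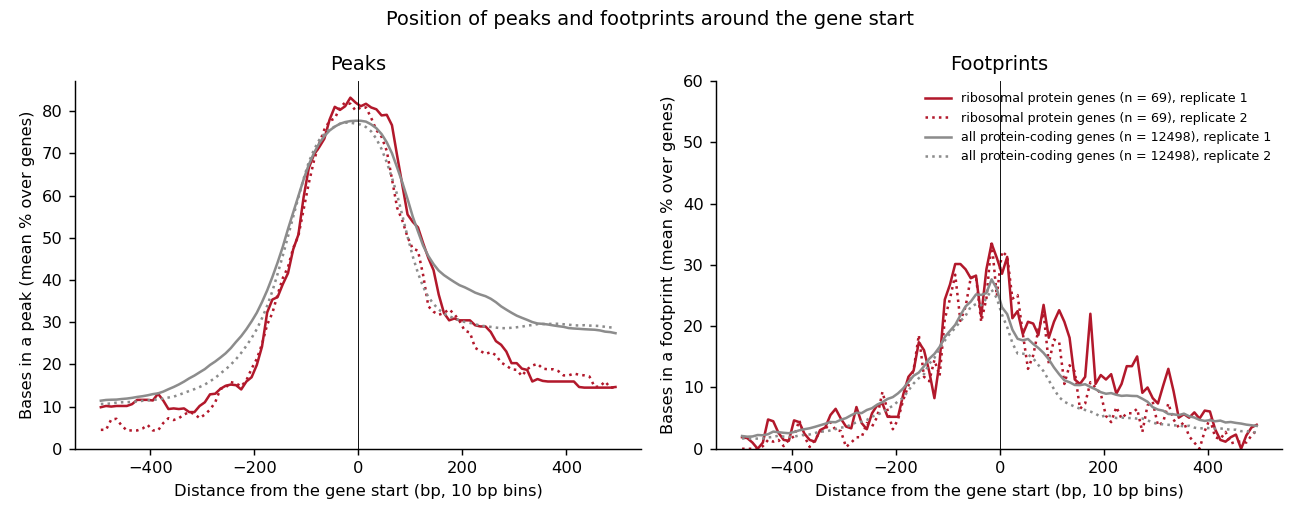
Mean percent of bases in a peak (left) or a footprint (right) in 10 bp bins around the gene start, for 69 ribosomal protein genes and 12498 protein-coding genes with a promoter peak in both libraries; solid lines are replicate 1 and dotted lines replicate 2. Both gene groups peak just before the start, at 82.5% and 77.4% for peaks and 33.7% and 26.8% for footprints. Far from the start, peak cover of the ribosomal protein genes falls lower on both sides.

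Short sequence words known as factor motifs were counted from 250 bp before to 50 bp after the outermost 5′ end, on both strands of the reference sequence. The word TCTCGCGA, part of the palindrome bound by ZBTB33 (Kaiso), occurred in 11 of 76 ribosomal protein promoters, or 14.5%, against 1.35% of 20807 protein-coding promoters. Among genes with a promoter peak in both libraries the shares were 15.9% and 2.17%. The ETS word CCGGAAG occurred in 22 of 76, or 28.9%, against 11.03%. Among genes with a promoter peak the ETS shares were 30.4% and 16.7%. No base sequence of 1 motif contains that of another.

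The TCTCGCGA match began within 100 bp of the start in 9 of the 11 ribosomal protein genes, and farther upstream in Rps19, at 221 bp, and Rpl4, at 243 bp. In 7 of the 11 ribosomal protein genes the match overlapped a footprint in both libraries, or 63.6%, against 55.4% of 271 protein-coding genes with a match and a promoter peak. They included Rpl7a, Rpl26, Rps28, Rps6 and Rps15a. Rps6 is the small subunit protein phosphorylated by S6 kinase, Rps28 lies near the exit of the messenger RNA channel, and Rps15a also belongs to the small subunit. The median signal of the 11 genes was 5.48, against 4.07 in the other ribosomal protein genes with a promoter peak. Over all protein-coding genes the medians with and without the word were 4.35 and 2.96. Other words described below also went with a higher median in ribosomal protein genes. With and without the word, it was 5.63 and 4.07 for the cyclic AMP response element and 5.07 and 3.80 for GGGCGG. For CCAAT it was 5.00 and 3.77. The NRF1 and E-box words were also higher, whereas ETS, at 4.29 and 4.44, YY1, AP-1 and NEUROD were lower. The matches of 8 genes are printed because TCTCGCGA had the largest ratio of its share to the background among the motifs searched, with the word or the whole palindrome in capitals and 20 bases on either side. These genes were chosen after their values were seen, and Rpl27a is left out because its match begins 27 bp downstream of the start. In Rpl23a the word is read on the opposite strand.
Rpl7a, chr2:26910735-26910782: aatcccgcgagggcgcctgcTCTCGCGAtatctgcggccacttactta
Rpl26, chr11:68901520-68901569: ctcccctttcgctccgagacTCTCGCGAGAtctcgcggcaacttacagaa
Rps28, chr17:33824534-33824583: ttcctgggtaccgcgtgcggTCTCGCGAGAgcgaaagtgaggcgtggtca
Rps19, chr7:24884130-24884177: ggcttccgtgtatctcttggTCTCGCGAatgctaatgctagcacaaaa
Rps6, chr4:86857389-86857438: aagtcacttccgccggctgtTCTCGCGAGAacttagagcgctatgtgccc
Rps15a, chr7:118116186-118116233: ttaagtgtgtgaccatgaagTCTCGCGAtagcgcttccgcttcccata
Rpl23a, chr11:78183587-78183634: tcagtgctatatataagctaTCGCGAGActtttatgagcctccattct
Rpl4, chr9:64173112-64173161: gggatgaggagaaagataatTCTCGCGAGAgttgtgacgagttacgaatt
Among the printed genes the whole 10-base palindrome was present in Rpl26, Rps28, Rps6 and Rpl4. In Rps28 it spans the start base itself, beginning 1 bp before it, and in Rps6 it begins 6 bp before the start base.

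For the other words the shares are again those of ribosomal protein promoters and of all protein-coding promoters. The YY1 word AAGATGGC was found in 5 genes, or 6.58%, against 2.93% of protein-coding promoters, the cyclic AMP response element TGACGTCA in 5, or 6.58%, against 2.43%, and the E-box CACGTG in 11, or 14.5%, against 7.82%. Among genes with a promoter peak in both libraries these shares were 7.25% and 4.09% for YY1, 7.25% and 3.58% for the cyclic AMP response element and 14.5% and 10.1% for the E-box. In 4 of the 5 genes with the cyclic AMP response element the match overlapped a footprint in both libraries. Among 448 protein-coding genes with the word and a promoter peak the share was 83.9%. The ETS word did so in 7 of 21 genes, or 33.3% against 35.6%, and the YY1 word in 1 of 5, or 20% against 40.5%. For the E-box the shares were 30% and 28.9%, for CCAAT 22.7% and 21.9%, and for GGGCGG 61.3% and 59.1%. The SP and KLF word GGGCGG stood at 42.1% and 43.7%, but among genes with a promoter peak in both libraries at 44.9% and 63.9%. The NRF1 word GCATGCGC stood at 3.95% and 3.45%. The AP-1 word TGACTCA stood at 3.95% and 4.52%, and the NEUROD word CAGATGG, that of neuronal bHLH factors, at 5.26% and 4.67%. For all 3 words the order of the shares was reversed among genes with a promoter peak in both libraries. The shares were 4.35% and 5.29% for NRF1, 4.35% and 3.03% for AP-1 and 2.90% and 3.78% for NEUROD. They rest on 3, 3 and 2 of 69 ribosomal protein genes, too few to read a direction from. The CCAAT word was found in 30.3% of ribosomal protein promoters and 38.6% of all protein-coding promoters. The TATA word TATAAA, searched on the sense strand from 40 to 20 bp upstream of the outermost 5′ end, was found in 0 of 76 ribosomal protein promoters and 2.29% of protein-coding promoters. Upstream of the principal start it was found in 1 of 76, that of Rps2, and in 2.33% of protein-coding genes.

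**Figure D5:**
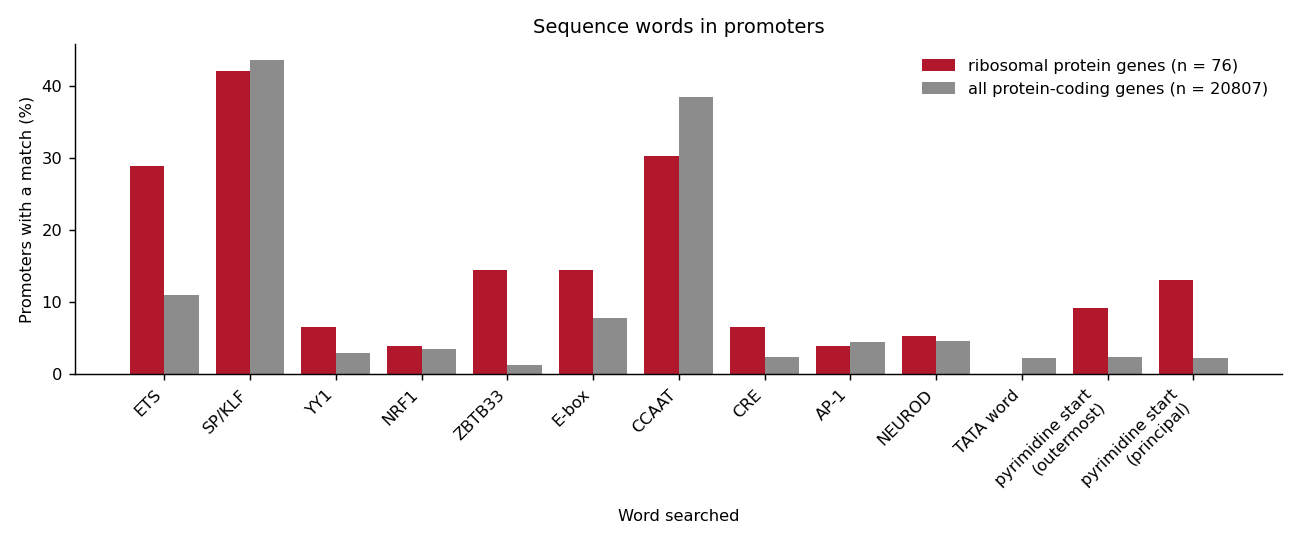
Percent of promoters (vertical axis) holding each sequence word, for 76 ribosomal protein genes and 20807 protein-coding genes; the pyrimidine start bars are a C at the outermost or principal start followed by at least 4 pyrimidines. The ETS bars stand at 28.9% and 11.03%, the ZBTB33 bars at 14.5% and 1.35%, and the principal pyrimidine start bars at 13.2% and 2.30%.

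The pyrimidine start of these genes was present at the annotated start of a minority of them. A C at the start followed by at least 4 pyrimidines was found at the outermost 5′ end of 7 genes, or 9.21%, against 2.34% of protein-coding genes, and at the principal start of 10 genes, or 13.2%, against 2.30%. Within 5 bp of the outermost 5′ end it was found in 22 genes, or 28.9%, against 19.2%. A run of at least 8 pyrimidines touched the 25 bp on either side of the outermost 5′ end in 34 genes, or 44.7%, against 24.1%. Of the 10 principal starts, 8 are printed from 30 bp before to 20 bp after the start base, with the whole pyrimidine run in capitals.
Rpl30, chr15:34443202-34443252: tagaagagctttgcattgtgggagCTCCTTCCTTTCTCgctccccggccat
Rpl36, chr17:56613386-56613436: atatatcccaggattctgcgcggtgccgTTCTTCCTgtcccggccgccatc
Rpl37, chr15:5116615-5116665: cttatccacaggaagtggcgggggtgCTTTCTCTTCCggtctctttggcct
Rpl37a, chr1:72711260-72711310: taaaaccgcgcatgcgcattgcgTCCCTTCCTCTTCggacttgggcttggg
Rpl4, chr9:64173345-64173395: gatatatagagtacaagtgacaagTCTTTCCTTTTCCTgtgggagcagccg
Rps2, chr17:24720080-24720130: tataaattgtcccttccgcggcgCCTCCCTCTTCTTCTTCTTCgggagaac
Rps21, chr2:180257347-180257397: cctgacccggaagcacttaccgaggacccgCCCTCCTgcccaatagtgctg
Rps24, chr14:24490688-24490738: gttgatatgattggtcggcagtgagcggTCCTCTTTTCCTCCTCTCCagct
Among these the run was longest in Rps2, at 20 bp, and Rps24, at 19 bp, and shortest in Rps21, at 7 bp. In Rps2 and Rps24 it lies at an internal start, which is the stronger or only open one described above. At the internal start of Rps24 the signal was 5.13 in replicate 1 and 5.85 in replicate 2, against 3.32 and 3.70 at the outermost 5′ end.

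Gene structure varied within the group. With a median length of 3399.5 bp the genes were short, against 17629 bp for all protein-coding genes, and 17 of 76 had a peak of both libraries inside the gene beyond the promoter, against 11240 of 20807 protein-coding genes. A snoRNA gene lay inside 27 genes on the same strand. The 25 hosts with a promoter peak had a median signal of 4.73, against 4.07 in 43 non-host genes not ending in l. Another protein-coding gene started in the opposite direction within 1000 bp upstream of 8 genes, and the 7 of these with a promoter peak had a median signal of 3.54, against 4.31 in 61 others. The strongest of them were Rpl7a, which shares its promoter with the Mediator gene Med22 starting 87 bp away, Rpl9, paired with the lipoic acid synthase gene Lias 53 bp away, and Rps28, paired with the respiratory chain gene Ndufa7 10 bp away. For such pairs a peak cannot be given to one gene or the other. Within the group signal went with CpG content, with a Spearman correlation across genes of 0.519 with the number of CpG dinucleotides in the promoter, against 0.376 over all protein-coding genes with a peak, as a description. The promoter held a median of 64 CpG dinucleotides in ribosomal protein genes and 43 in all protein-coding genes.

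The pseudogenes named after these genes were mostly closed. They were chosen by symbol and were not restricted to processed copies. A peak reached within 500 bp of the start of 5 of 259 annotated Rpl and Rps pseudogenes in both libraries, or 1.93%, against 60.1% of protein-coding genes. Averaged over the libraries, the strongest peaks of these 5 were centred from 133.5 to 573.25 bp upstream of the start. It did so for 12 pseudogenes in replicate 1 and 7 in replicate 2. Rpl29-ps2, the strongest, had a signal of 2.33 in replicate 1 and 2.36 in replicate 2, and starts 160 bp from the start of the aldo-keto reductase gene Akr1e1. The promoter of Akr1e1 had the same mean signal, 2.35, so this peak cannot be given to the pseudogene. The other 4, Rpl21-ps7, Rps19-ps10, Rpl28-ps4 and Rpsa-ps9, had mean signals from 0.138 to 0.617. Copies of the same sequence limit where reads can be placed. Of the 31-base words in the 1 kb window, a median of 33.1% occurred elsewhere in the genome in pseudogenes and 4.53% in ribosomal protein genes. Within the 150 bp around the strongest peak, 18 of 69 ribosomal protein genes held such repeated words, or 26.1%, against 4.61% of protein-coding genes. The share was largest in Rpl29, at 40% of words, Rpl37a, at 37.5%, and Rps27a, at 32.5%, and its part in their signal was not tested. Of the 6 strongest genes none had a repeated word there.

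Genes outside the group with the most similar promoters were found by the Euclidean distance over standardised log2 signal, footprint number and footprint bases of both libraries, measured from the medians of the ribosomal protein genes. The nearest were Plk4 at 0.191, Ist1 at 0.233, Twsg1 at 0.241, Zfand1 at 0.244 and Tfpt at 0.252. Plk4, a centriole kinase, had a signal of 4.14 in replicate 1 and 4.85 in replicate 2 with 8 and 6 footprints. The nearest ribosomal protein gene, Rpl15, lay at 0.638. Far more genes were searched outside the group than inside it. A smaller smallest distance outside follows from that larger pool, so these distances do not rank the groups by likeness.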

How the data were processed

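DNase-seq calls of 2 libraries were used, 1 per animal, taken as replicates 1 and 2 from the labels. The authors aligned the reads to mm10 and called peaks and footprints in each library, per the labels, with aligner and callers not given in the sources used here. Peak signal values are deposited cut densities normalised to read depth; steps between values correspond to 206 M and 208 M cuts. The deposited footprint tables give the false discovery rate as a fraction, 0.01 throughout, and the deposited cut-rate tables hold q-values below 0.05.

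Genes came from GENCODE M21 and sequence from GRCm38.p6, the mm10 build. A promoter was the outermost 5′ end and 500 bp on either side, and an overlap of 1 bp sufficed; the larger of 2 peak lists per library was used. All protein-coding genes, which include the ribosomal protein genes, served as background. Windows were intersected with bedtools 2.31.1 and counted in Python 3.11.15 with NumPy 2.4.6 and SciPy 1.17.1, tested on simulated intervals. Named genes were those without a promoter peak, the 6 highest and 6 lowest signals, extremes of footprints and library difference, stalk, paralogue, Diamond-Blackfan and divergent genes; others were chosen after values were seen. The members and lists were chosen with earlier results of these data known. Alternatives changed the window, start, peak list, library, scaling and motif window. Counting across genes gives no p-value, and 2 animals limit the precision. Alleles were not analysed here, and a few genes and sequences are not reported here.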

Additional observations from a re-analysis of the deposited data

How the results depend on the processing

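Of 54 alternative values, 39 lay within 1.5 times the reported one, for counts, or within 1 SD between the libraries, for medians and percentages. Part of the 39 was fixed in advance. The footprint median set beside genes of similar signal repeats the reported value. Medians of single libraries fall within or near 1 SD by construction, because the SD comes from the same 2 libraries. No direction of difference from all protein-coding genes turned for the count of open promoters or the median signal. The count of ribosomal protein genes with a promoter peak in both libraries ranged from 67 with a window of 250 bp to 73 at the principal or any annotated start, the last chosen after seeing the data, and the median signal ranged from 3.80 to 4.63 over single libraries. Counting only footprints that overlap the other library lowered the median from 7 to 4.5, against 4 in all protein-coding genes. The distance of the peak centre was 0.5 to 5.5 bp in single libraries. In 150 bp around the strongest peak the E-box was found in 6 genes, or 8.70% against 6.22% of all protein-coding genes with a promoter peak. The NEUROD word was found in 1 gene, or 1.45% against 1.65%, and the AP-1 word in 2, or 2.90% against 1.37%. For both words this order was the reverse of that over all 76 genes, on counts too small to read a direction from. The TATA word was found in 1 gene at principal starts, an alternative chosen after seeing the data. Pyrimidine starts within 5 bp numbered 22. Pseudogenes with a peak in the window numbered 3 with a window of 250 bp, and 7 to 12 in single libraries. The share of all protein-coding genes was 57.1% with a window of 250 bp, 62.4% with 1000 bp, 61.0% at principal starts, 56.1% with the smaller list, 61.5% to 62.2% in single libraries and 95.6% for CpG-rich promoters. The cause of these shifts was not tested. No paired analysis was possible because there is 1 group and no test. Depth, at 206 M and 208 M cuts, limits the detection of weak peaks. Allelic differences between C57BL/6J and CAST/EiJ were not analysed, and repeated sequence was not masked. The outermost annotated 5′ end missed the open start of 4 genes.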
